A study of Mus musculus with 6 samples.

Results

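Irf7 and Oas1a are a pair of interferon response genes, taken by name from a table of 1834 genes measured in mouse liver. Both were selected on their values in these same libraries, where they were higher with Ly6d, so their levels are given as a description, without a test. Liver RNA was sequenced from mice labelled as overexpressing Ly6d, which received an adeno-associated virus (AAV) that carries Ly6d (AAV-Ly6d, 3 libraries), and from mice labelled WT, which received an AAV that carries green fluorescent protein (AAV-GFP, 3 libraries). Every library therefore comes from a liver exposed to an AAV vector, and the animals of both groups were kept on the same diet. The sources used here do not state the strain, age, sex, diet, virus dose or vector promoter, nor whether each library is from its own animal. The study is about Ly6d, which encodes a lipid-anchored surface protein of the Ly6 family, in steatotic liver disease of metabolic origin.

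Type I interferon is made when sensors detect viral nucleic acid and signal through adaptors such as MAVS to transcription factors of the IRF family. The interferon receptor then activates a complex with IRF9 that binds interferon-stimulated response elements (ISREs) in the promoters of many antiviral genes. IRF7 is both a product of this response and the factor that drives most interferon-alpha genes, which makes it an amplifier of the loop. Oas1a encodes a 2′-5′ oligoadenylate synthetase. Enzymes of this kind sense double-stranded RNA and make a second messenger that activates RNase L, which cuts viral and cellular RNA. In liver, hepatocytes, endothelial cells and resident immune cells can all mount such a response.

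Irf7 is a minus-strand gene of chromosome 7, from 141262706 to 141266481 (GRCm38, the mm10 assembly, GENCODE release M21), with 13 annotated transcripts of up to 3240 bases. The last 45 bases of its 3′ end overlap an exon of Phrf1 on the opposite strand, and whether reads were counted by strand is not stated in the sources used here. Oas1a is a minus-strand gene of chromosome 5, from 120896256 to 120907521, with 1 annotated transcript of 1885 bases. The close paralog Oas1g, which is also in the table, lies 8643 bases away on the same strand. Of 1836 windows of 50 bases in the Oas1a transcript, 57.6% also occur in Oas1g, so reads can be shared between these genes and each one's own value is uncertain. For Irf7, 0 of 3191 such windows occur in the annotated transcripts of another gene.

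The promoter windows of these genes are shown because both genes are known for interferon-driven transcription. Each is 300 bases around the RefSeq start (GRCm38.p6), 5′ to 3′ on the strand of the gene, with most bases upstream of the start. Capitals mark matches to an ISRE-type motif, spelled GAAA, any 2 bases, GAAA on either strand, where matches may overlap. Of 15 interferon pathway genes in the table, 11 had a window in the RefSeq table.
Irf7, chr7:141266375-141266674, minus strand: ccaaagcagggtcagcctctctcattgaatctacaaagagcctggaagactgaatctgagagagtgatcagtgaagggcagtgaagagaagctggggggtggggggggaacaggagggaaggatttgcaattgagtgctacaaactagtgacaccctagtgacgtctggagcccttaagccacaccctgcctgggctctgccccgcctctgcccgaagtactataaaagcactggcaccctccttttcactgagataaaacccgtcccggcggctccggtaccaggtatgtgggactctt
Oas1a, chr5:120907476-120907775, minus strand: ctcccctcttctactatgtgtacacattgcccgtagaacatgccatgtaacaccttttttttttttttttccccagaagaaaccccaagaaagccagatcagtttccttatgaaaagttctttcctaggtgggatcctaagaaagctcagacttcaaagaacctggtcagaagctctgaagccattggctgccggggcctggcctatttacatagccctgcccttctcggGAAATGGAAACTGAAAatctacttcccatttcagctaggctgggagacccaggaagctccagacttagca
Oas1g, chr5:120887564-120887863, minus strand: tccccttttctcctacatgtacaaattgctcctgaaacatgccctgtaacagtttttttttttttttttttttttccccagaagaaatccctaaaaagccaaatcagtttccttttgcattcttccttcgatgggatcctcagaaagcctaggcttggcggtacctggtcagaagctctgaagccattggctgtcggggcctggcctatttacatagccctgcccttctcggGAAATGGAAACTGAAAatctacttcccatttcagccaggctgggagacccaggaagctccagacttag
Apol9b, chr15:77728822-77729121, plus strand: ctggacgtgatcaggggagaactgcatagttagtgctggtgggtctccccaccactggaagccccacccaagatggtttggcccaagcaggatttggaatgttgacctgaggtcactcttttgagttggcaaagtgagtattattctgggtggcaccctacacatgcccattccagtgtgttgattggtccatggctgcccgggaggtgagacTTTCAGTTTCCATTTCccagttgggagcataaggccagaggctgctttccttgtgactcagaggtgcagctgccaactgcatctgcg

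The Oas1a window held 2 overlapping matches that form the run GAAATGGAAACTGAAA at bases 231 to 246 of the window. Its first base is at position -20 from the RefSeq start, which is upstream. Oas1g holds the same run at bases 233 to 248, inside a stretch of 73 bases that is identical between both promoters. Over their whole windows these promoters were identical at 88.8% of 294 aligned bases. Apol9a and Apol9b, interferon-induced apolipoprotein L genes that are also in the table, carry the same 16-base run on the opposite strand. Their windows share long stretches of sequence around it, so neither this pair nor Oas1a and Oas1g give separate occurrences of the run. The run was chosen after the promoters had been read, and it occurs in the windows of 5 of 27025 genes, namely Oas1a, Oas1c, Oas1g, Apol9a and Apol9b. The Irf7 window held no match to this spelling, which says only that these letters are absent from it. An ISRE-type match was present in 3.99% of all 27025 genes with a window and in 6 of the 11 listed genes that had one, namely Oas1a, Oas1g, Apol9a and Apol9b, whose log2 fold changes were positive, and Slfn5 and Gbp7, whose log2 fold changes were negative. The listed genes were picked as interferon genes, Oas1a among them, so their share is not a test. Across the table an ISRE-type match was present in 5.03% of 497 tested genes with a higher and 4.83% of 725 with a lower value in AAV-Ly6d. Motifs of the STAT (TTCNNNGAA) and NF-kB (GGGA, any base, TTTCC) type were searched on both strands as well. Oas1a had 1 STAT-type match, at bases 153 to 161, and Irf7 had neither. STAT-type matches occur in 9.55% and NF-kB-type matches in 0.466% of genes with a window.

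The deposited values are normalised read counts, in which each read of a library is worth a fixed amount between 0.844 and 1.09. The 1834 genes held 3835101 to 4359932 reads in AAV-Ly6d and 3248078 to 3448888 reads in AAV-GFP libraries, which is part of each library. The rule that chose these genes is not stated in the sources used here, so any count below holds inside the table only. Ly6d itself had normalised read counts of 3181, 1799 and 3275 in AAV-Ly6d and 56.1, 9.68 and 182 in AAV-GFP, which fits the labels. AAV-GFP replicate 2 stands apart: of 700 tested genes with a higher value in AAV-Ly6d, 72.0% had their lowest value in that library, and its normalised read count of Apob was 743167, against 186314 to 216089 in the other 5 libraries. The log2 fold changes of Irf7 and Oas1a are therefore given with and without it, and those of the other interferon genes where its omission changed a call or moved the value by more than 1.5 times.

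Irf7 was 2.64 times as high in livers given AAV-Ly6d. Its normalised read counts were 1724, 936 and 1589.5 in AAV-Ly6d replicates 1, 2 and 3, against 738, 251 and 619 in AAV-GFP replicates 1, 2 and 3. The groups did not overlap, but the gap was narrow, with a ratio of 1.27 between AAV-Ly6d replicate 2 and AAV-GFP replicate 1. The means were 1417 ± 422 in AAV-Ly6d and 536 ± 254 in AAV-GFP (SD, n = 3 each), from 939 to 1774 reads per library in AAV-Ly6d and 233 to 763 in AAV-GFP. The log2 fold change, AAV-Ly6d over AAV-GFP on the log2(value + 1) scale, was 1.49 (SE 0.42), and 1.02 (SE 0.27) without AAV-GFP replicate 2. In bulk liver, more cells of a type and more RNA per cell cannot be told apart.

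Oas1a differed by a similar amount at a lower level. Its normalised read counts were 177, 158 and 178 in AAV-Ly6d, against 76.4, 26.9 and 94.5 in AAV-GFP. The AAV-Ly6d libraries lay close together and the AAV-GFP libraries were spread over a wide range, with replicate 2 far below the others and no overlap between groups. The means were 171 ± 11.1 in AAV-Ly6d and 66.0 ± 35.0 in AAV-GFP (SD, n = 3 each), or 2.60 times as high with AAV-Ly6d. AAV-Ly6d replicate 2, the lowest of its group, stood at 1.68 times AAV-GFP replicate 3, the highest of the other. The log2 fold change was 1.54 (SE 0.46). Without AAV-GFP replicate 2 it was 1.00 (SE 0.21), which is the one omission that moved it by more than 1.5 times. These values rest on 159 to 182 reads per library in AAV-Ly6d and on 79, 25 and 112 reads in AAV-GFP replicates 1, 2 and 3, part of which may come from Oas1g.

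**Figure D1:**
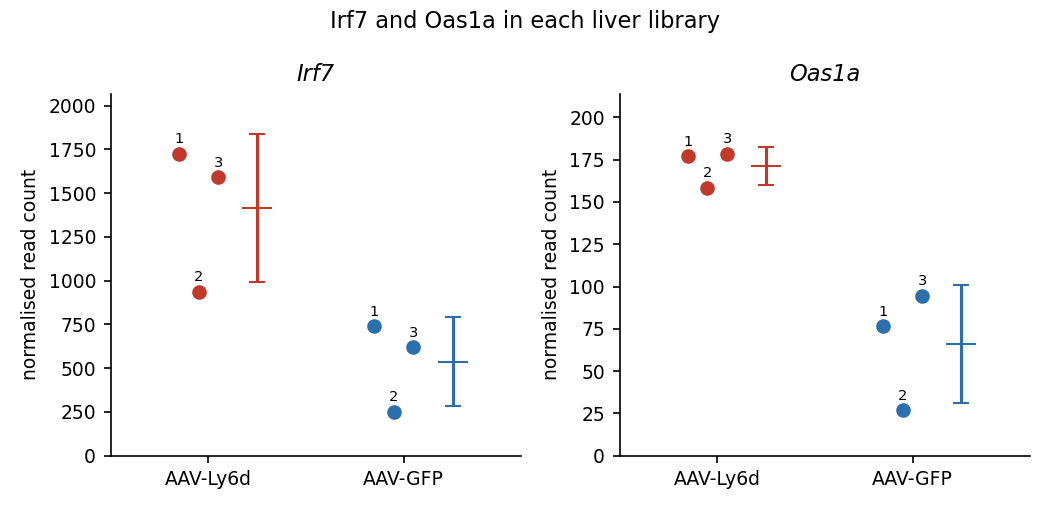
Normalised read counts of Irf7 (left) and Oas1a (right) in each library of AAV-Ly6d (red) and AAV-GFP (blue), with the replicate number above each point and the mean ± SD beside it. All 3 AAV-Ly6d libraries lie above the AAV-GFP libraries for both genes, and AAV-GFP replicate 2 is the lowest library in both panels (251 for Irf7 and 26.9 for Oas1a).

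Groups without overlap were common in the table. They were seen in 84.5% of 1780 tested genes, in 35.2% with AAV-Ly6d higher and in 49.3% with AAV-Ly6d lower, so nothing is read from their absence of overlap. By log2 fold change Oas1a ranked 97 and Irf7 112 from the top of the tested genes. The median log2 fold change over these genes was -0.67, so both members lay more than 2 units above the median gene (2.16 for Irf7 and 2.21 for Oas1a). Rescaling the libraries to a common median ratio moved that median to -0.33 and the log2 fold changes to 1.83 for Irf7 and 1.88 for Oas1a. Over the 6 omissions of a library the log2 fold change ranged between 1.02 and 1.79 for Irf7 and between 1.00 and 1.89 for Oas1a. Both stayed positive under every alternative that was run. Without overlap between the groups an omission cannot reverse the sign, so nothing is read from this.

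**Figure D2:**
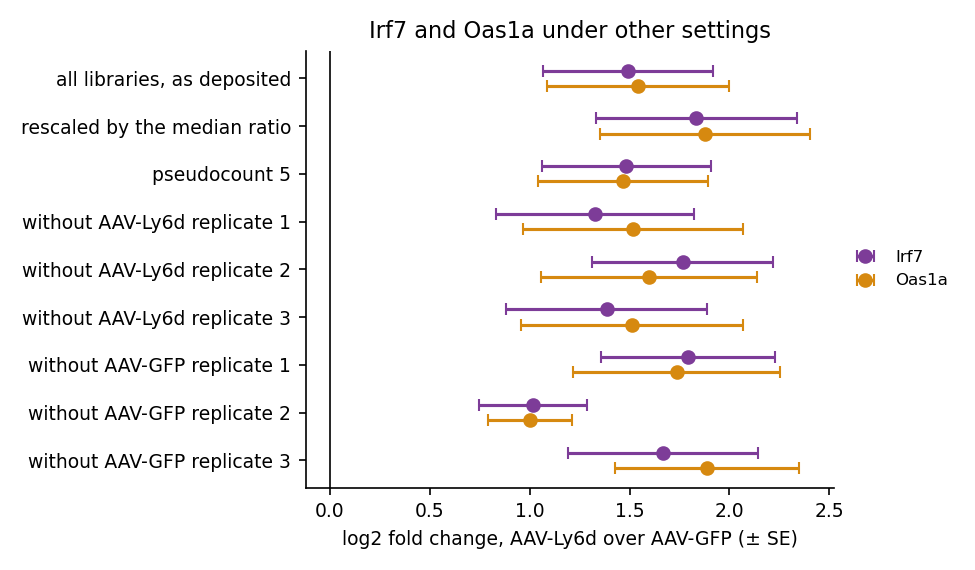
Log2 fold change (AAV-Ly6d over AAV-GFP, ± SE from the fit) of Irf7 (purple) and Oas1a (orange) with all libraries, after rescaling by the median ratio, with a pseudocount of 5, and without each library in turn. All points lie above 0, and the lowest are those without AAV-GFP replicate 2, at 1.02 for Irf7 and 1.00 for Oas1a.

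The genes differed in how they varied inside a group. The coefficient of variation of Irf7 was 29.8% in AAV-Ly6d and 47.4% in AAV-GFP. For Oas1a it was 6.49% in AAV-Ly6d and 53.1% in AAV-GFP, against medians over tested genes of 19.7% in AAV-Ly6d and 29.7% in AAV-GFP. The ratio of Irf7 to Oas1a normalised read counts was 9.75, 5.91 and 8.91 in AAV-Ly6d replicates 1, 2 and 3, and 9.66, 9.32 and 6.55 in AAV-GFP replicates 1, 2 and 3. These ranges overlap, so no difference between groups in the proportion of the pair was seen beyond the spread of the libraries. AAV-Ly6d replicate 2 was the lowest of its group for both genes, by a wide margin for Irf7 and a narrow one for Oas1a.

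Measured per kilobase of the longest annotated transcript, Irf7 was the more abundant of the pair. Irf7 averaged 437 ± 130 per kilobase in AAV-Ly6d and 165 ± 78.5 in AAV-GFP (SD, n = 3 each). Oas1a averaged 90.9 ± 5.90 per kilobase in AAV-Ly6d and 35.0 ± 18.6 in AAV-GFP. Among the 15 interferon pathway genes in the table, Irf7 stood at place 4 in AAV-Ly6d and 5 in AAV-GFP, and Oas1a at place 9 in AAV-Ly6d and 11 in AAV-GFP. In AAV-Ly6d, Irf7 lay below Mavs (752 to 836 per kilobase) without overlap and overlapped Apol9a (254 to 434). Oas1a at 84.1 to 94.7 per kilobase overlapped its neighbours Socs3 (65.7 to 133) and Mx2 (58.4 to 85.2). The most abundant of the listed genes was Ifi27 at 3344 ± 409 per kilobase in AAV-Ly6d and 1999 ± 581 in AAV-GFP. The longest transcript need not be the one expressed, so this order is approximate.

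Of 245 genes on 13 lists that cover sensors, adaptors, interferons, receptors, IRFs, antiviral effectors, antigen presentation, chemokines, regulators and acute phase genes, 15 are among the 1834, Irf7 and Oas1a included. The other 230 were not analysed here. They include every listed sensor (16), interferon (21), receptor and JAK-STAT gene (12), MHC class I and immunoproteasome gene (20), MHC class II gene (7) and interferon-induced chemokine (9). Of the 13 genes besides Irf7 and Oas1a, 5 rose, 1 fell and 7 did not pass limma's Benjamini-Hochberg adjusted p of 0.05, and their median log2 fold change was 0.95. The share called was 46.2%, close to the 43.9% of all 1780 tested genes. The share that rose was 38.5%, against 15.9% of all tested genes, and 1 of the 13 fell, against 28% of all tested genes. These lists were drawn up with earlier results of the data known. Among the 5 that rose, Oas1g shares 54.1% of its 50-base windows with Oas1a, which was chosen on these values. Apol9b shares 51.4% with Apol9a. These genes are therefore not independent, and nothing is read from the difference in shares. Of the 13, 12 had no overlap between groups (92.3%, against 84.5% of all tested genes), the exception being Irf9.

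**Figure D3:**
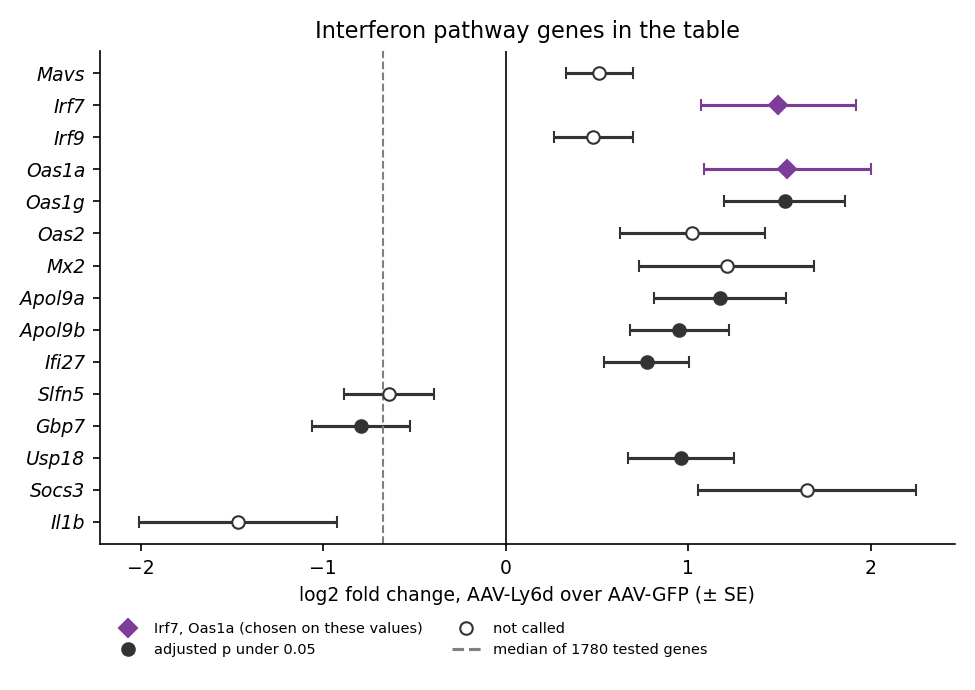
Log2 fold change (AAV-Ly6d over AAV-GFP, ± SE) of the 15 interferon pathway genes in the table, from adaptor to regulators. Diamonds mark Irf7 and Oas1a, filled circles the 6 genes past an adjusted p of 0.05 in limma, open circles the 7 that were not, and the dashed line the median of the tested genes at -0.67. Only Slfn5, Gbp7 and Il1b of these genes lie below 0.

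Upstream of the IRFs, the adaptor gene Mavs, whose product relays RNA sensing at mitochondria, had normalised read counts of 2332, 2557 and 2298 in AAV-Ly6d, against 1887, 1390.3 and 1799.9 in AAV-GFP. Its log2 fold change of 0.51 (SE 0.18) narrowly missed the threshold (limma adjusted p = 0.0506). Irf9, a DNA-binding member of the complex that the interferon receptor activates, had values of 1131.5, 833 and 1272 in AAV-Ly6d, against 843, 683 and 765 in AAV-GFP. One AAV-Ly6d library lay inside the range of AAV-GFP, and the log2 fold change of 0.48 (SE 0.21) did not pass (limma adjusted p = 0.0661). Of the other 7 IRF genes none is among the 1834, so Irf7 and Irf9 are the IRF genes analysed here.

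In the oligoadenylate synthetase family, Oas1g rose with a log2 fold change of 1.53 (SE 0.33, limma adjusted p = 0.0324). Its normalised read counts were 66.1, 61.8 and 82.7 in AAV-Ly6d, against 30.0, 20.4 and 21.1 in AAV-GFP. Oas1g was less affected by AAV-GFP replicate 2 than Oas1a, with a log2 fold change of 1.43 without that library (limma adjusted p = 0.0327). The ratio of Oas1a to Oas1g values was between 2.16 and 2.68 in AAV-Ly6d and was 2.55, 1.32 and 4.48 in AAV-GFP replicates 1, 2 and 3, so the paralogs did not keep a fixed proportion across the AAV-GFP libraries. Oas2, a larger synthetase of the family, had values of 75.8, 117 and 78.3 in AAV-Ly6d, against 51.3, 25.8 and 59.9 in AAV-GFP. Its log2 fold change of 1.02 (SE 0.40) did not pass (limma adjusted p = 0.0565), and it was 0.67 without AAV-GFP replicate 2. Oas1g was also the 1 gene of the 13 to pass an adjustment over all 55450 annotated genes in DESeq2 on the reads (adjusted p = 0.0428).

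Of 72 listed antiviral effector genes 5 were tested, of which 3 rose (60%) and 2 did not pass. Of all 1780 tested genes 15.9% rose and 43.9% were called in either direction. With 5 genes, among them the paralogs Apol9a and Apol9b, nothing is read from these shares. Apol9a rose to normalised read counts of 1460.1, 1079 and 1841 in AAV-Ly6d, against 911, 366 and 755 in AAV-GFP (log2 fold change 1.17, SE 0.36, limma adjusted p = 0.0420). Without AAV-GFP replicate 2 its log2 fold change was 0.78 (limma adjusted p = 0.0474). Its paralog Apol9b rose by 0.95 (SE 0.27, limma adjusted p = 0.0405), and 51.4% of the 50-base windows of its transcript also occur in Apol9a, so these are not independent values. Ifi27, a small mitochondrial protein gene on the antiviral effector list, rose to 3705, 3178 and 2920.1 in AAV-Ly6d, against 1552, 2603 and 1704 in AAV-GFP (log2 fold change 0.77, SE 0.23, limma adjusted p = 0.0414). It is the one gene among the 10 with a positive log2 fold change that was not lowest in AAV-GFP replicate 2.

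Mx2, a relative of the antiviral dynamin-like GTPase Mx1 and annotated as a polymorphic pseudogene, had values of 175, 145 and 211 in AAV-Ly6d, against 118, 33.4 and 106 in AAV-GFP. Its log2 fold change was 1.21 (SE 0.48), which did not pass (limma adjusted p = 0.0581), and 0.64 without AAV-GFP replicate 2. Slfn5, a Schlafen family gene, was on the other side, with 160.4, 260.1 and 219 in AAV-Ly6d, against 336, 349.7 and 295 in AAV-GFP (log2 fold change -0.64, SE 0.25, limma adjusted p = 0.0565). This is close to the median of the tested genes at -0.67. After rescaling by the median ratio Slfn5 had a log2 fold change of -0.30 (limma adjusted p = 0.305). Of the 50-base windows of the Slfn5 transcript, 11.8% also occur in transcripts of another gene, with 7.88% in Slfn5os. The share found in another gene was 6.55% for Mx2 (in Mx1), 12.8% for Gbp7 (10.6% in Gm43802) and 4.47% for Usp18 (in Gm44148).

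Gbp7, a guanylate-binding GTPase gene classed with interferon-gamma targets, was the one listed gene that fell. It had normalised read counts of 219.7, 190.3 and 319 in AAV-Ly6d, against 378, 509 and 360.3 in AAV-GFP (log2 fold change -0.79, SE 0.27, limma adjusted p = 0.0475). This is close to the median gene of the table, and after rescaling by the median ratio Gbp7 had a log2 fold change of -0.45 and did not pass (limma adjusted p = 0.157). The difference between Gbp7 and the 2 members was not tested.

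Among inhibitors of the pathway, Usp18, whose product removes ISG15 and blocks the interferon receptor, rose. Its normalised read counts were 458, 355 and 547 in AAV-Ly6d, against 262, 159 and 287 in AAV-GFP (log2 fold change 0.96, SE 0.29, limma adjusted p = 0.0418). Socs3, an inhibitor of cytokine receptors that act through STAT3, had 340.2, 207 and 168 in AAV-Ly6d, against 126, 25.8 and 113 in AAV-GFP. Its log2 fold change of 1.65 (SE 0.60) did not pass (limma adjusted p = 0.0519), and it was 0.93 without AAV-GFP replicate 2. The other 10 listed regulators were not analysed here. Il1b, the interleukin-1 beta gene and the only one of 18 listed NF-kB and acute phase genes in the table, had 14.6, 27.9 and 26.1 in AAV-Ly6d, against 114, 74.2 and 28.7 in AAV-GFP (log2 fold change -1.47, SE 0.54, limma adjusted p = 0.0540).

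**Figure D4:**
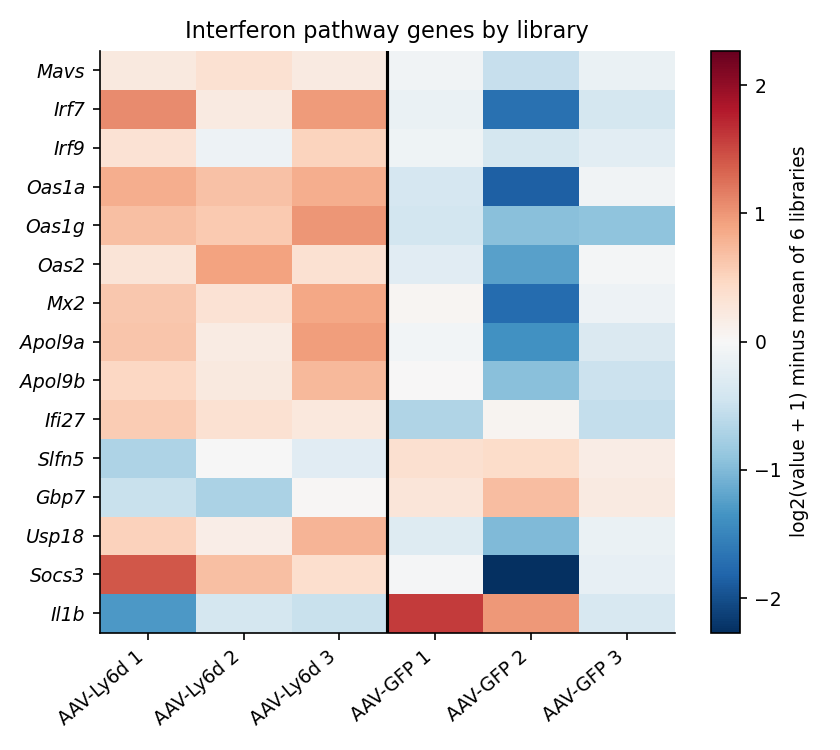
Log2(value + 1) of the 15 interferon pathway genes in each library, minus the mean of each gene over the 6 libraries, on a colour scale from low (blue) to high (red). AAV-GFP replicate 2 is the bluest column for most rows from Mavs to Apol9b, and it is the lowest library for Irf7, Oas1a and 9 of the other 10 genes with a positive log2 fold change.

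The calls in this group, like those across the table, depended on single libraries. Without AAV-GFP replicate 2, limma called 6 of the 13 genes, all of them higher, and the median log2 fold change of the 13 was 0.67. Mavs then passed (log2 fold change 0.38, limma adjusted p = 0.0481) and Gbp7 did not (log2 fold change -0.64, limma adjusted p = 0.0666). Leaving out AAV-GFP replicate 1 left 2 called, leaving out AAV-GFP replicate 3 left 1 (Il1b, lower), and leaving out any single AAV-Ly6d library left 0. The genes with an unadjusted p under 0.05 then numbered 6, 10 and 8 without AAV-Ly6d replicates 1, 2 and 3. Across the table limma called 782 of 1780 tested genes with all libraries. It called 607 of 1738 (283 higher, 324 lower) without AAV-GFP replicate 2. Without AAV-GFP replicates 1 and 3 it called 134 of 1744 and 139 of 1743. Without AAV-Ly6d replicates 1, 2 and 3 it called 0 of 1764, 104 of 1765 and 19 of 1758. After rescaling by the median ratio 10 of the 13 interferon genes were called, all higher, against 5 higher and 1 lower on the deposited scale. Across all tested genes the same rescaling turned 36.2% of 782 calls higher into 69.4% of 935.

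Markers of other cells were examined beside these genes. Of 11 listed hepatocyte markers 6 are in the table, and their summed normalised read counts ranged between 551404 and 580653 in AAV-Ly6d and between 423513 and 901865 in AAV-GFP, where the highest was AAV-GFP replicate 2 through its Apob value. Of these 6, Apoa1, Hnf4a and Tat rose and 3 did not pass, and 5 of 6 had a positive log2 fold change. Among all 1780 tested genes, 15.9% rose, 28% fell and 700 had a positive log2 fold change. Apoa1, Hnf4a and Tat each passed in 1 of the 6 fits without 1 library. AAV-GFP replicate 2 was the lowest library for 4 of the 5 markers with a positive log2 fold change. Of 17 endothelial markers 12 are in the table and all 12 fell, with sums of 3725 to 4652 in AAV-Ly6d and 9482 to 13949 in AAV-GFP. Of 13 stellate cell markers 9 are in the table, of which 6 fell and 3 did not pass, with sums of 1151 to 2580.1 in AAV-Ly6d and 3714 to 5308 in AAV-GFP. Both cholangiocyte markers in the table, Sox9 and Tff3, of 7 listed, rose, with sums of 303 to 1111 in AAV-Ly6d and 59.2 to 80.2 in AAV-GFP. Of 8 B cell markers, Igkc, the kappa light chain gene, is in the table and rose, with values of 102 to 217 in AAV-Ly6d and 32.3 to 92.8 in AAV-GFP (limma adjusted p = 0.0474), but it passed in 0 of the 6 fits without 1 library (limma adjusted p = 0.0587 to 0.113). Of 12 T and NK cell markers, Gzmb is in the table, with 3.89 to 17.9 in AAV-Ly6d and 0 to 3.87 in AAV-GFP. None of the 15 macrophage and 9 monocyte and neutrophil markers is among the 1834, and of 8 markers of plasmacytoid dendritic cells, which are rich in Irf7, 2 are. One of these is Ly6d, the gene the vector carries. The other is Tcf4, with 189 to 209 in AAV-Ly6d and 231 to 443 in AAV-GFP, which did not pass (limma adjusted p = 0.0716). The remaining 6 are not among the 1834, so 1 gene is left and no level of these cells is read from it. No listed marker in the table was at 0 in any library, except Gzmb in AAV-GFP replicate 2. The part of these cell types in the levels of Irf7 and Oas1a was not tested.

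The genes most like each member across the 6 libraries were ranked by Pearson's correlation of log2(value + 1). All libraries share the same group difference and the low AAV-GFP replicate 2, so high values are common, and they are a description only. For Irf7 the 8 closest genes had r between 0.986 and 0.996 and were Polr2h, a subunit shared by RNA polymerases, Psmb2, a proteasome subunit, Serping1, which encodes the C1 inhibitor, Ccdc130, mt-Ty, a mitochondrial tRNA, E2f8, a cell cycle repressor, Rab9 and Clec2d. Of these, E2f8 had the log2 fold change nearest to Irf7, at 1.54. For Oas1a the 8 closest had r between 0.995 and 0.998 and were Junb, a subunit of AP-1, Rpl9, a ribosomal protein, Kansl2, Pnpla2, the adipose triglyceride lipase, Psmd11, Hint1, Baiap2l1 and Fbp1, a gluconeogenic phosphatase. Junb had 970.1, 812 and 869 in AAV-Ly6d, against 315, 107 and 435 in AAV-GFP, with a log2 fold change of 1.85. None of these 16 genes is on the interferon lists, and the lists of both members do not share a gene. Irf7 and Oas1a had r = 0.955 with each other, which placed Oas1a at 86 among the named genes most like Irf7 and Irf7 at 150 among those most like Oas1a.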

How the data were processed

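The authors deposited normalised read counts (unit: signal) for 1834 genes in 6 liver libraries. Bowtie 0.12.2 and mm10 are named in the submitters' processing notes. The sources used here do not state the counter, its strand setting, the normalisation tool or the rule that chose the genes. Every deposited value was a whole multiple of 1 step per library (100% within 0.001 of a whole number), and reads were recovered from these steps. In AAV-Ly6d replicate 2 the step is 0.997, so close to 1 that its reads are less surely recovered than those of the other 5 libraries.

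Identifiers were matched to GENCODE M21, where 1833 of 1834 had a symbol. Differences were tested with limma 3.58.1 (R 4.3.3, mean-variance trend, no covariates) on log2(value + 1) for the 1780 genes that reached 1 in 3 or more libraries. A gene was called, and is said to have risen or fallen, where p after Benjamini-Hochberg adjustment over these genes was under 0.05. The log2 scale with a pseudocount of 1 understates changes of low genes. If the genes were chosen on these libraries, adjusted p-values understate the error, and they measure the spread between libraries, which may be technical. edgeR 4.0.16 (quasi-likelihood) and DESeq2 1.42.0 on recovered reads, and an adjustment over 55450 annotated genes, were alternatives added after seeing the data. The test was tried on simulated data.

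The genes, the 13 pathway and 9 marker lists, and the rule for named genes (all listed genes in the table, and the 8 most alike to each member) were chosen with earlier results of these data known. Read counts carry counting error beside the spread between libraries.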

Additional observations from a re-analysis of the deposited data

How the results depend on the processing

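The log2 fold changes of Irf7 and Oas1a moved by less than the spread between replicates and stayed positive under all 18 alternatives each. Nothing is read from the sign, because both genes were chosen as higher in these libraries. As their groups do not overlap, no omission of 1 library can reverse it. Several alternatives, among them the replicate block and the limma adjustment over the annotation, leave the log2 fold change itself as it was. Of the 13 other interferon genes, limma called 6 with all libraries and 0 with a replicate block (10 with an unadjusted p under 0.05), 10 after rescaling by the median ratio, 1 without the mean-variance trend and 0 with the adjustment over the annotation (12 with an unadjusted p under 0.05). On recovered reads, edgeR called 3 on the deposited scale and 11 with TMM factors, and DESeq2 called 12, or 1 with the adjustment over the annotation. Leaving out 1 library gave 0 to 6. Of all tested genes 782 were called, against 48 with the replicate block, 465 in edgeR on the deposited scale, 1338 in DESeq2, 124 in DESeq2 and 1 in limma over the annotation, and 0 to 607 without 1 library (0 when AAV-Ly6d replicate 1 was left out, where 773 had an unadjusted p under 0.05, and 607 for AAV-GFP replicate 2). Of 32 cell type markers other than Ly6d, 24 were called, against 10 with the block and 0 to 21 without 1 library. On recovered reads DESeq2 called 27, and edgeR called 20 on the deposited scale and 26 with TMM factors. With the adjustment over the annotation DESeq2 called 15 and limma 0 (27 with an unadjusted p under 0.05 in limma). The log2 fold change of Ly6d was between 4.70 and 6.75 without 1 library (limma adjusted p = 0.0867 when AAV-Ly6d replicate 1 was left out and 0.0564 for AAV-Ly6d replicate 3), and its 5.79 did not pass the adjustment over the annotation in limma (adjusted p = 0.567). Same-numbered libraries did not deviate together over the tested genes (correlations of -0.02, -0.05 and -0.06 for numbers 1, 2 and 3). With 3 libraries per group, this cannot decide whether the numbers pair the samples. The labels do not state a pairing, so the block is a check only. With the block the SE was 0.225 for Irf7 and 0.394 for Oas1a, against 0.424 and 0.457 without it. The causes of these changes were not tested.

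Of the pair, Oas1a has the fewer reads, with 25 in AAV-GFP replicate 2.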
